A study of Mus musculus with 12 samples.

Results

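Expression of 9 genes of perivascular adipocytes and of heat-producing (thermogenic) fat was followed in the aorta of Eln+/- mice: Ucp1, Cidea, Elovl3, Adipoq, Plin1, Lep, Fabp4, Dio2 and Ppargc1a. The genes were taken by symbol from the 50600 annotated genes of the series, with earlier results of these data known. All 9 were among the 24660 genes that had enough reads to be tested. RNA sequencing was done on bulk aorta from below the left subclavian artery down to the diaphragm, with 12 libraries in 3 groups of 4. All mice, controls included, were C57BL/6J animals labelled Elastin +/-, with 1 functional copy of the gene for the main elastic protein of the arterial wall, and all carried the labelled age of 3 months. Control mice drank untreated water. On-drug mice drank minoxidil, a potassium channel opener that relaxes arteries, for 2 weeks from 2.5 months of age. Off-drug mice had the same 2 weeks of minoxidil and then 1 week of drug-free water, which by this schedule makes them 1 week older than the others. No wild-type group is part of the comparisons here, and the fat around the vessel is not named as removed or kept in the protocol.

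The aorta lies in a sleeve of perivascular fat, and around the mouse thoracic aorta that fat resembles brown fat. White adipocytes store triglyceride in 1 large droplet and secrete hormones such as leptin and adiponectin, whereas brown adipocytes burn fatty acids for heat through uncoupling protein 1. In brown fat noradrenaline acts through beta-adrenergic receptors and cyclic AMP on a shared programme that includes Ucp1, Dio2, Elovl3 and Ppargc1a. Dio2 and Ppargc1a are also active in cells other than adipocytes.

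The 250 bases before the RefSeq transcription start are shown for 4 of the genes. Dio2 is the gene whose level fell after withdrawal. Ucp1 and Adipoq stand for the brown and the general adipocyte genes that varied between samples, and Ppargc1a is the coactivator of the programme. Of the 9 genes, 6 had an entry in the RefSeq promoter table (GRCm38.p6): these 4, Plin1 and Lep. The windows are chr12:90739039-90739288 on the minus strand for Dio2, chr8:83290098-83290347 on the plus strand for Ucp1, chr5:51567726-51567975 on the minus strand for Ppargc1a and chr16:23146286-23146535 on the plus strand for Adipoq. Each is written 5′ to 3′ on the gene's strand, with capitals for matches to the motifs searched.
Dio2: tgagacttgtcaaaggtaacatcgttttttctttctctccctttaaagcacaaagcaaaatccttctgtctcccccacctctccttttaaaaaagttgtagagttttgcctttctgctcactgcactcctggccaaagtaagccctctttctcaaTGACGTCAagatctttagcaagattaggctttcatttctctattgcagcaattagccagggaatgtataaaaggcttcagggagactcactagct
Ucp1: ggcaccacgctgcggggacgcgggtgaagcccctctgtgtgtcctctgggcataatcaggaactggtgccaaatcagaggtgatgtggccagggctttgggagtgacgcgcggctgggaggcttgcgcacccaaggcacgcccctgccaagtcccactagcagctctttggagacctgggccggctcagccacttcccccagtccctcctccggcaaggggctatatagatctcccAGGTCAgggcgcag
Ppargc1a: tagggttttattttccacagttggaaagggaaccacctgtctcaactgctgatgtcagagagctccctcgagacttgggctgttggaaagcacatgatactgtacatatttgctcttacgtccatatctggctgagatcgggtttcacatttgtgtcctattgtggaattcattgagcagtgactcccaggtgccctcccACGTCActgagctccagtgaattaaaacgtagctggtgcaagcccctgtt
Adipoq: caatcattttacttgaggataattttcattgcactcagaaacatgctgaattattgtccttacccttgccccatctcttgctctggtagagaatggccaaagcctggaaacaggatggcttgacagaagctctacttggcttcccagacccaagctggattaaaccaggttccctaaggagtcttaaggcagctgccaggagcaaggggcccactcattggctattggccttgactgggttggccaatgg
The motifs were searched on both strands. The capitals in the Dio2 window are the cyclic AMP response element TGACGTCA, which begins 95 bases before the RefSeq start and was held by 1.55% of the 32851 windows of the table. That RefSeq start lies 600 bases upstream of the gene start in the annotation used for the counts. In the Ucp1 window the capitals mark AGGTCA, the core motif of nuclear receptors, 14 bases before the start that 14% of windows held. The Ppargc1a window holds TGACGT, part of the cyclic AMP response element and overlapping it in Dio2, on the opposite strand 50 bases before the start (6.47% of windows). The Adipoq, Plin1 and Lep windows held no match to these motifs or to the E-box CACGTG, which 6.02% of windows held. The direct repeat AGGTCANAGGTCA, bound by PPAR and RXR pairs, was in 0.0335% of windows and in none of the 6. A match describes letters, and nothing on binding was measured.

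Libraries held 41524501 to 109423243 assigned counts. Levels are given in CPM, counts scaled to a common library total with TMM factors, and for comparisons between genes in CPM per kilobase of exon. No 2 libraries of a group were copies of each other. Off-drug replicates 1 and 2 stood apart from the rest, low in adipocyte genes and with the highest mean log2 level of skeletal muscle genes (not the highest summed level), and control replicate 3 was also low in adipocyte genes. The labels number the samples of a group without saying that each is a separate animal or pool, so the p-values describe the spread between these samples. Per kilobase, Ucp1 had the highest mean of the 9 at 27.7 ± 22.2 (mean ± SD, n = 12). Fabp4 at 26.7 ± 11.2, Adipoq at 22 ± 11.8, Cidea at 18.3 ± 10.7 and Dio2 at 14.1 ± 5.97 came next. Plin1 followed at 4.33 ± 2.15. Elovl3 at 0.538 ± 0.48, Ppargc1a at 0.335 ± 0.0818 and Lep at 0.199 ± 0.21 were the lowest. In this order of levels, only the steps from Dio2 to Plin1 and from Plin1 to Elovl3 exceeded the spread of both neighbours. The 4489 exon bases counted for Fabp4 cover its whole gene span, any introns included. Its value per kilobase may thus be understated, and its rank below Ucp1 is not settled. Together the 9 genes made up between 0.0106% and 0.0535% of the counts of a library.

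**Figure D1:**
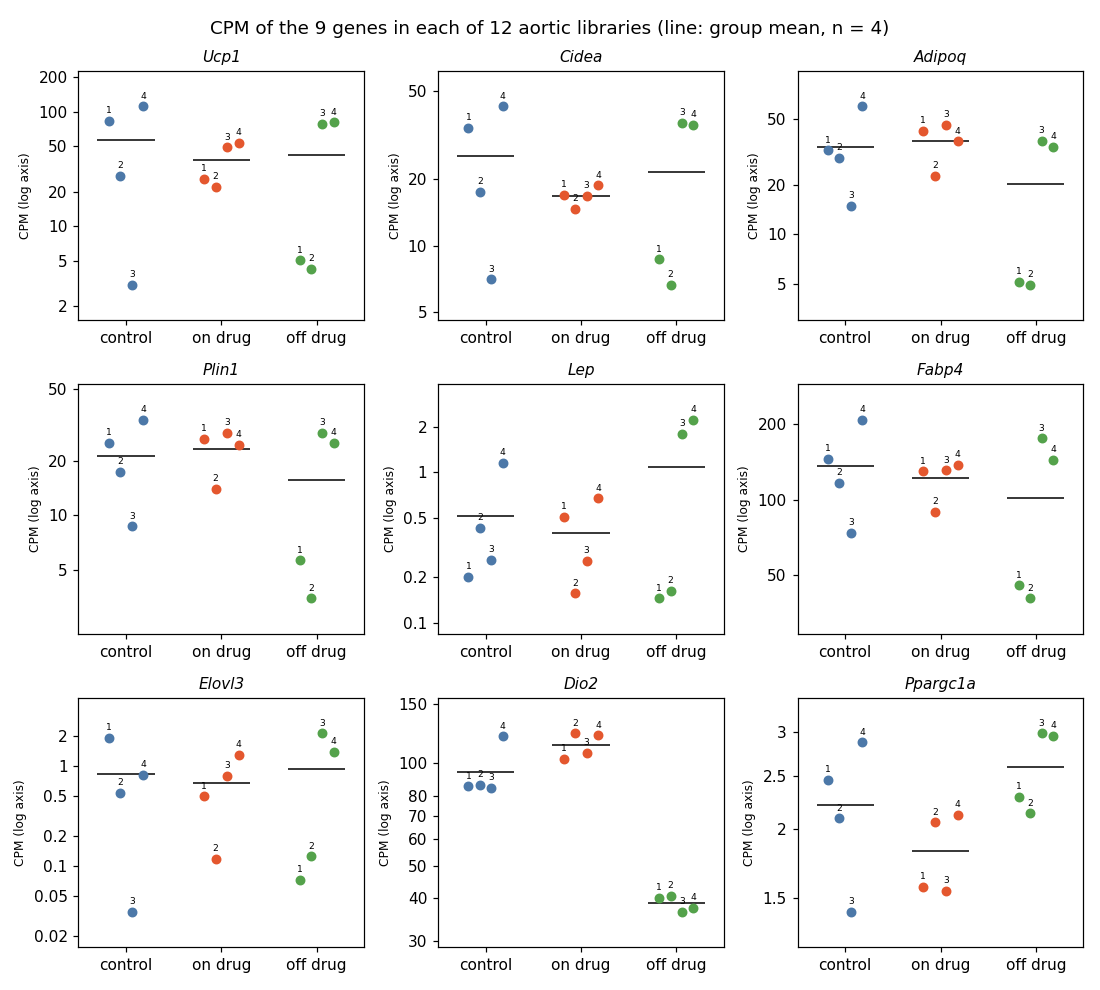
Level of each gene in CPM (vertical log axis) in the 12 libraries by group, with the replicate number above each point and a line at the group mean. The off-drug libraries lie at 36.5 to 40.8 CPM of Dio2, below the 8 others, and control replicate 4 lies above the other controls, whereas off-drug replicates 1 and 2 and control replicate 3 lie low for Ucp1, Cidea, Plin1 and Fabp4.

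Ucp1 encodes the mitochondrial proton channel that defines brown and beige adipocytes (ENSMUSG00000031710.4, chromosome 8, 83290352 to 83298452, plus strand, GRCm38). Control replicates 1 to 4 had 83.4, 27.6, 3.07 and 111 CPM. On-drug replicates had 26.1, 22, 48.9 and 53.5 CPM, and off-drug replicates 5.01, 4.21, 78.7 and 80.6 CPM. The range over all 12 libraries was 36.2-fold, control replicate 3 was lowest, and all 3 groups overlapped. Within groups the SD of log2 CPM was 1.96, against a median of 0.21 over all tested genes, and 99.96% of tested genes had a smaller one. Against control the log2 fold change was -0.59 ± 1.14 (SE) on drug (adjusted p = 0.828, edgeR's quasi-likelihood test with Benjamini-Hochberg adjustment), with a 95% interval of -3.16 to 1.99. Off drug it was -0.41 ± 1.13 against control and 0.17 ± 1.14 against on drug. With this spread, changes of several-fold in either direction were not detectable for Ucp1.

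Elovl3, a fatty acid elongase strongly induced in cold-exposed brown fat, spanned the widest range of the 9 genes at 60.2-fold, but at 2 to 164 counts per library (ENSMUSG00000038754.4, chromosome 19, 46131897 to 46135307, plus strand). It had 1.9, 0.534, 0.0349 and 0.813 CPM in the controls, 0.496, 0.117, 0.795 and 1.28 CPM on drug, and 0.0726, 0.125, 2.1 and 1.38 CPM off drug. The 4 lowest libraries were control 3, on-drug 2 and off-drug 1 and 2. The log2 fold changes were -0.28 ± 1.14 on drug and 0.18 ± 1.11 off drug against control.

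Adipoq encodes adiponectin, the hormone secreted by adipocytes of every depot (ENSMUSG00000022878.5, chromosome 16, 23146536 to 23158028, plus strand). It was measured at 32.3, 29.1, 14.9 and 59.7 CPM in controls 1 to 4. The on-drug libraries had 42.6, 22.6, 46.2 and 36.6 CPM, and the off-drug libraries 5.15, 4.94, 36.9 and 33.9 CPM. Off-drug replicates 1 and 2 thus lay below every other library, while replicates 3 and 4 lay within the control range. Its log2 fold change was 0.12 ± 0.7 on drug and -0.74 ± 0.71 off drug, each against control (adjusted p = 0.948 and 0.576), and -0.86 ± 0.71 between off drug and on drug (adjusted p = 0.519), in edgeR's quasi-likelihood test.

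Plin1 encodes perilipin 1, the coat protein of the adipocyte lipid droplet that gates lipolysis (ENSMUSG00000030546.14, chromosome 7, 79720218 to 79732903, minus strand). Its levels were 25.2, 17.4, 8.71 and 33.7 CPM in controls, 26.4, 14.1, 28.6 and 24.5 CPM on drug, and 5.64, 3.49, 28.6 and 25.1 CPM off drug. The same off-drug replicates 1 and 2 were the lowest of the 12. No contrast passed: the log2 fold changes were 0.14 ± 0.67, -0.43 ± 0.67 and -0.57 ± 0.67 on drug and off drug against control and between the drug groups (off drug minus on drug).

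Fabp4, a fatty acid carrier abundant in adipocytes that capillary endothelial cells and macrophages also make, was the highest of the 9 in CPM (ENSMUSG00000062515.3, chromosome 3, 10204088 to 10208576, minus strand). Controls had 146, 117, 73.6 and 208 CPM, on-drug libraries 130, 89.3, 131 and 138 CPM, and off-drug libraries 45.4, 40.3, 176 and 144 CPM. Its 5.17-fold range was the narrowest of the 7 genes with high spread, and off-drug replicates 1 and 2 were again lowest. The log2 fold changes were -0.16 ± 0.51 on drug and -0.42 ± 0.51 off drug against control.

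Lep, which encodes the satiety hormone leptin, was measured with 8 to 235 counts per library (ENSMUSG00000059201.12, chromosome 6, 29060220 to 29073877, plus strand). It had 0.202, 0.427, 0.262 and 1.16 CPM in controls, 0.505, 0.157, 0.257 and 0.673 CPM on drug, and 0.145, 0.162, 1.81 and 2.24 CPM off drug. Off-drug replicates 3 and 4 were the highest of the 12 libraries, and off-drug replicate 1 the lowest. The log2 fold change was 1.09 ± 0.91 off drug against control (adjusted p = 0.512) and 1.42 ± 0.93 off drug against on drug (adjusted p = 0.397) in edgeR's quasi-likelihood test.

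Cidea, a lipid droplet protein used as a marker of brown and beige fat, followed Ucp1 at a narrower range of 6.42-fold (ENSMUSG00000024526.8, chromosome 18, 67343564 to 67367794, plus strand). Controls had 34.2, 17.6, 7.04 and 42.8 CPM. On-drug libraries were close together at 17, 14.7, 16.9 and 18.8 CPM, and off-drug libraries fell into a low and a high pair at 8.68, 6.66, 36 and 35.4 CPM. The log2 fold changes were -0.59 ± 0.66 on drug and -0.22 ± 0.66 off drug against control, with overlapping groups. A short opposite-strand gene, B430212C06Rik, overlaps 1 exon and shares reads because counting used no strand; its mean count was 39.9 against 1590 for Cidea.

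Of the 9 genes, Dio2 had the smallest spread within groups and was the one that passed the test (ENSMUSG00000007682.5, chromosome 12, 90724554 to 90738438, minus strand). It encodes type 2 iodothyronine deiodinase, which converts thyroxine inside the cell to the active thyroid hormone triiodothyronine. Controls had 85.6, 86.6, 84.9 and 120.1 CPM, on-drug libraries 103, 123, 107 and 121 CPM, and off-drug libraries 40.2, 40.8, 36.5 and 37.6 CPM. The 4 off-drug libraries all lay below the 8 others, and the control and on-drug groups overlapped through control replicate 4. Dio2 fell from 94.3 ± 17.2 CPM (SD, n = 4) in controls to 38.8 ± 2.03 CPM off drug, 2.43-fold lower, a log2 fold change of -1.28 ± 0.1 (95% interval -1.5 to -1.07, adjusted p = 9.5e-07 by edgeR's quasi-likelihood test). Against the on-drug mean of 114 ± 9.64 CPM it was 2.93-fold lower, a log2 fold change of -1.55 ± 0.1 (adjusted p = 1.53e-07). These contrasts share the off-drug libraries. Each held when any 1 library was left out.

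During treatment Dio2 was not called higher: the log2 fold change of on drug against control was 0.27 ± 0.1 (95% interval 0.06 to 0.48, unadjusted p = 0.0161, adjusted p = 0.117 by edgeR's quasi-likelihood test), and 3 of 4 controls lay below all on-drug libraries. This call depended on control replicate 4, the highest of its group: with that library left out it was 0.4 (adjusted p = 0.00304). It also passed with library sizes used without composition factors, at 0.31 (adjusted p = 0.0383).

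An opposite-strand gene of unknown function, Gm26512, overlaps 1 exon of Dio2, and without strand the reads of the overlap count for both. Its mean count was 244 against 5680 for Dio2, and it fell off drug by a log2 fold change of -1.07 ± 0.16 against control (adjusted p = 0.00024) and -1.23 ± 0.16 against on drug (adjusted p = 4.16e-05). The levels of this pair cannot be told apart in the shared exon.

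Ppargc1a encodes the coactivator PGC-1 alpha, which drives mitochondrial biogenesis in brown fat and muscle (ENSMUSG00000029167.13, chromosome 5, 51454250 to 51567726, minus strand). It had 2.46, 2.09, 1.41 and 2.88 CPM in controls, 1.57, 2.06, 1.54 and 2.12 CPM on drug, and 2.29, 2.14, 2.99 and 2.95 CPM off drug, with 66 to 310 counts behind each value. The 4 off-drug libraries were above the 4 on-drug libraries, by a narrow margin of 2.14 to 2.12 CPM, and both groups overlapped the controls. The log2 fold change off drug against on drug was 0.51 ± 0.21 (95% interval 0.08 to 0.94, unadjusted p = 0.0236, adjusted p = 0.121 by edgeR's quasi-likelihood test), which did not pass. Against control it was -0.28 ± 0.21 on drug and 0.23 ± 0.2 off drug.

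**Figure D2:**
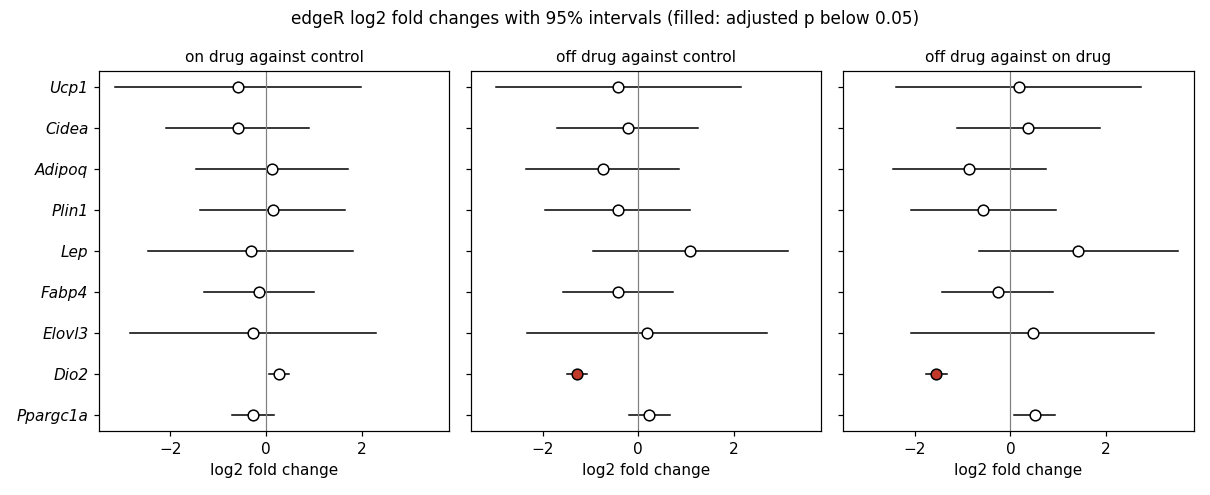
Log2 fold change of each gene (horizontal axis) with its 95% interval in the 3 comparisons, filled where the adjusted p was below 0.05. Dio2 is filled at -1.28 and -1.55 in the comparisons of the off-drug group, while intervals of the 7 adipocyte genes all include 0.

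Counted over the list, 0 of the 9 genes passed the test for on drug against control, where 7.07% of the 24660 genes tested did. For off drug against control 1 of 9 passed, Dio2, against 12% of all genes, and for off drug against on drug again 1 of 9, Dio2, against 12.4%. These shares are near those of all genes. By direction, 4.13% of genes tested were higher and 2.94% lower on drug against control, and 6.27% and 5.77% off drug against control. For off drug against on drug 5.44% were higher and 6.92% lower. The counts of called genes in the lists below are to be read beside these shares. The median log2 fold change of the 9 was -0.28, -0.41 and 0.17 in the 3 comparisons, beside medians of 0.005, -0.008 and -0.001 over all genes tested. With composition factors left out, the share of calls that were higher went from 58.4% to 72.8% on drug and from 52.1% to 68.9% off drug against control, and Dio2 remained lower off drug.

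**Figure D3:**
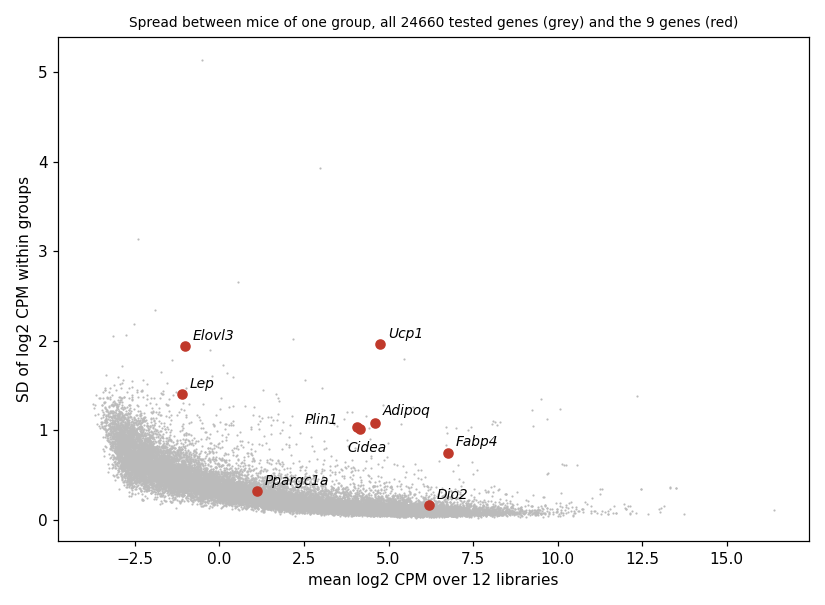
SD of log2 CPM within groups (vertical axis) against mean log2 CPM (horizontal axis) for the 24660 tested genes in grey and the 9 genes in red. Ucp1 at 1.96 and Elovl3 at 1.94 lie far above genes of like level, and Dio2 at 0.16 lies in the grey band.

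The spread between samples of 1 group set Dio2 and Ppargc1a apart from the other 7 genes. The within-group SD of log2 CPM was 1.96 for Ucp1, 1.94 for Elovl3, 1.41 for Lep, 1.08 for Adipoq, 1.04 for Plin1, 1.01 for Cidea and 0.751 for Fabp4. For Ppargc1a it was 0.32 and for Dio2 0.163, which 63.4% and 40.5% of all tested genes undercut. Among genes within 0.5 log2 CPM of its own level, each of the 7 exceeded at least 99.65% (the value of Fabp4) and Dio2 exceeded 89.4%.

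The 7 genes moved together from library to library. Across the 12 libraries Pearson's r of log2 CPM was 0.962 for Ucp1 with Cidea, 0.978 for Adipoq with Plin1 and 0.859 for Ucp1 with Adipoq, and the lowest among them was 0.606 for Adipoq with Lep. After group means were removed, the pairs ran from 0.698 (Lep with Elovl3) to 0.989 (Adipoq with Fabp4). These values describe 12 libraries that share group and tissue composition, and they lean on the few low libraries: without the 2 farthest, Adipoq with Lep had 0.455, Ucp1 with Cidea 0.931 and Adipoq with Plin1 0.957. Within groups Dio2 had r between -0.073 and 0.155 with the 7 genes. Ppargc1a lay between, with within-group r of 0.841 to Ucp1, 0.844 to Cidea and 0.518 to Dio2. In bulk tissue, fewer adipocytes and less of these RNAs per adipocyte cannot be told apart.

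**Figure D4:**
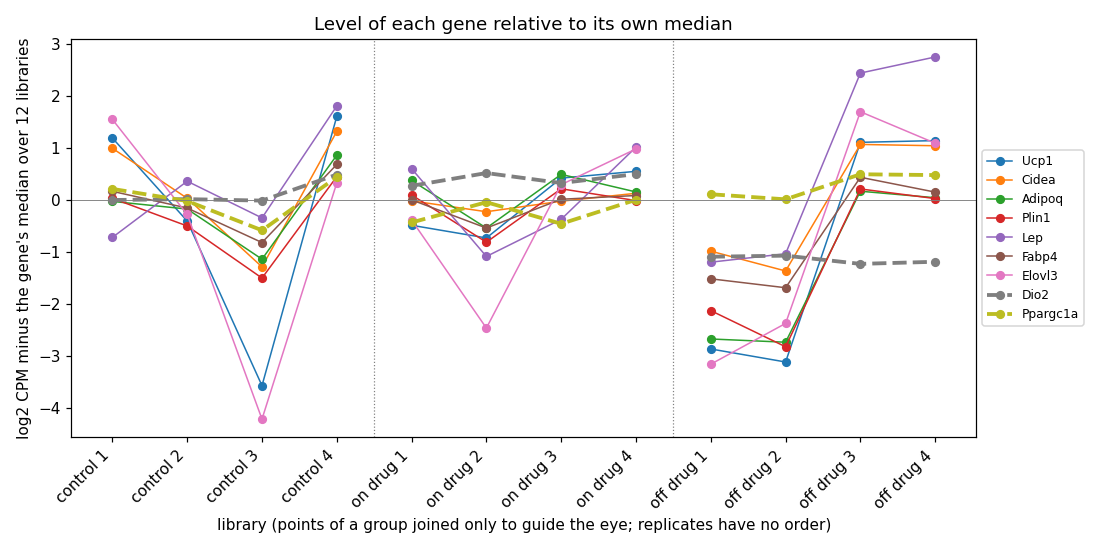
Log2 CPM of each gene minus its own median over the 12 libraries (vertical axis), by library. The solid lines of the 7 adipocyte genes dip together in off-drug 1 and 2, and all but Lep also have their lowest control value in control 3. The dashed line of Dio2 is low in all 4 off-drug libraries.

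Genes outside the list with the pattern most like Ucp1, by Pearson's r of log2 CPM over the 12 libraries among 12158 genes, were Chchd10 (r = 0.982), Gpd1 (0.979), Cox8b (0.979), Slc36a2 (0.964) and Tusc5 (0.96). For Adipoq they were Cidec (0.978), Mrap (0.977), Car3 (0.976), Acvr1c (0.974) and Cd36 (0.973). Gpd1 makes glycerol phosphate, Cox8b is a respiratory chain subunit of brown fat and muscle, and Cidec is a lipid droplet protein of adipocytes.

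The adipocyte genes did not all keep 1 ratio to each other. Ucp1 relative to Plin1 (ratio of CPM) was 3.31, 1.58, 0.353 and 3.3 in controls, 0.987, 1.57, 1.71 and 2.19 on drug, and 0.887, 1.21, 2.76 and 3.2 off drug. The lowest ratio was that of control replicate 3, which kept 14.9 CPM of Adipoq with 3.07 CPM of Ucp1. Off-drug replicate 1 had less Adipoq, 5.15 CPM, and more Ucp1, 5.01 CPM. Cidea relative to Plin1 ran from 0.589 (on-drug replicate 3) to 1.91 (off-drug replicate 2). Fabp4 relative to Plin1 ran from 4.58 to 11.6 between the same libraries. The ratio thus varied for the general gene Fabp4 as well, and Cidea and Ucp1 had their lowest ratios in different libraries. Dio2 relative to Plin1 ran from 1.28 (off-drug replicate 3) to 11.7 (off-drug replicate 2), since its level was alike in the libraries with the least and the most Plin1 off drug.

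**Figure D5:**
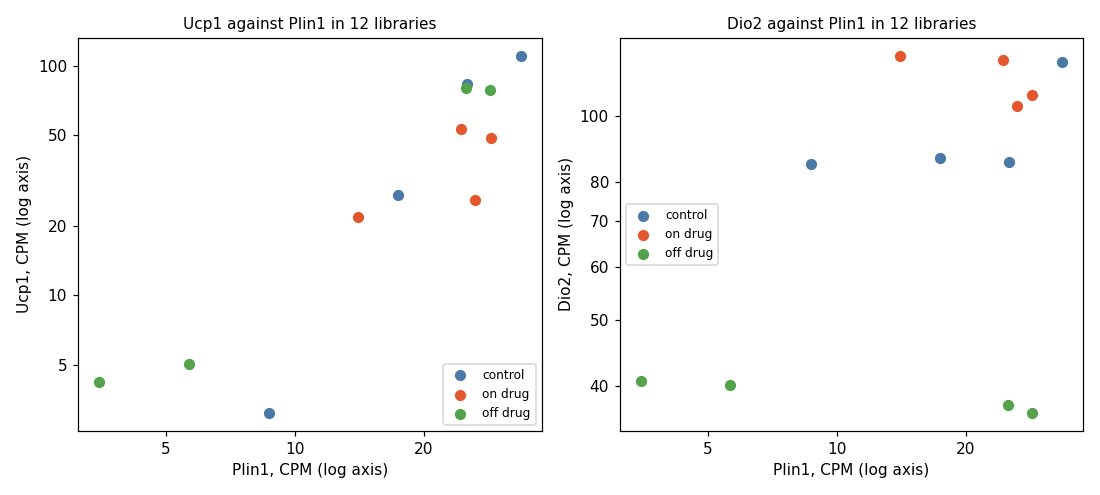
Ucp1 (left) and Dio2 (right) in CPM against Plin1 in CPM, log axes, 1 point per library, coloured by group. Ucp1 climbs with Plin1 from 3.07 to 111 CPM, and the 4 off-drug libraries keep Dio2 at 36.5 to 40.8 CPM at Plin1 levels from 3.49 to 28.6 CPM.

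Markers of fat and of other tissues were read beside these values. The mean log2 CPM of 18 further adipocyte genes was 3.64 and 3.39 in off-drug replicates 1 and 2 and 3.89 in control replicate 3, against 4.54 to 5.5 in the other 9 libraries. All 12 libraries held adipocyte transcripts, with Pparg at 2.52 to 17.5 CPM, Cidec at 4.9 to 48.8 CPM and Cox8b at 0.987 to 21.6 CPM. Of the brown fat regulators, Prdm16 had 22.5 to 38.4 CPM and Lhx8 0.286 to 0.771 CPM, and Zic1 was at 0 in 1 library.

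Off-drug replicates 1 and 2 also had the highest mean log2 CPM of skeletal muscle genes, 0.734 and 1.31, against -0.249 to 0.427 in the other 10 libraries. By summed level they did not stand apart: replicate 1 had 251 CPM, within the on-drug range, and replicate 2 had 202 CPM, the lowest of its group. Of 15 skeletal muscle genes tested, 4 rose on drug and 3 rose off drug against control, and the list summed to 141 to 154 CPM in controls, 224 to 277 on drug and 202 to 251 off drug. Casq1 and Tcap made up most of these sums. Pvalb was at 0 in 2 libraries, Mylpf had at most 0.65 CPM and Ckm 2.2 to 5.14 CPM. With this muscle score as a covariate the Dio2 log2 fold change off drug was -1.48 with control and -1.65 with on drug as the reference. The part of muscle tissue in the low fat values was not tested.

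Dio2 was as low without the libraries that stood apart. Without off-drug replicates 1 and 2 its log2 fold change was -1.36 against control (adjusted p = 9.64e-05) and -1.62 against on drug (adjusted p = 2.02e-05, edgeR's quasi-likelihood test), in a fit added after these libraries had been seen. With the score of 18 adipocyte genes as a covariate, also added then, it was -1.27 and -1.53. Off drug, 8 of 9 erythroid genes fell against control (summed level 4957 to 20630 CPM in controls, 3908 to 6038 on drug and 2064 to 4836 off drug). The 20630 CPM was that of control replicate 4, and the other controls had at most 8200 CPM. Of 10 macrophage genes, 4 fell off drug against control, and 4 of 10 smooth muscle genes rose in each comparison with control. Against on drug, 5 of 10 endothelial, 6 of 10 macrophage, 4 of 8 fibroblast and 3 of 10 smooth muscle genes fell, while 1 fibroblast and 1 smooth muscle gene rose. On drug against control, 2 of 10 endothelial and 2 of 10 macrophage genes rose, and off drug against control 2 endothelial genes fell. Endothelial genes summed to 750 to 845 CPM in controls, 929 to 1077 on drug and 674 to 876 off drug. Macrophage genes summed to 795 to 1010, 838 to 1024 and 674 to 781 CPM in that order. Fibroblast genes summed to 8736 to 10140 CPM in controls, 9718 to 11350 on drug and 8263 to 9298 off drug, so the drug groups did not overlap. Smooth muscle genes summed to 17140 to 19690, 19610 to 22410 and 18990 to 21610 CPM in the same order. Their part in the Dio2 value was not tested.

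Holding the adipocyte score constant changed some calls among the other genes. Off drug against on drug, Cidea was higher by 0.82 (adjusted p = 0.00567), Lep by 1.8 (adjusted p = 0.0135) and Ppargc1a by 0.69 (adjusted p = 0.0231). With Dio2, 4 of the 9 genes passed in that fit, beside 2662 of the 24660 genes tested. On drug against control, Cidea was lower at -0.55 (adjusted p = 0.0461) and Fabp4 at -0.26 (adjusted p = 0.0302), and off drug against control Adipoq was lower at -0.49 (adjusted p = 0.0418, edgeR's quasi-likelihood test). Over all genes tested, 1762 passed on drug against control and 2851 off drug against control in that fit. All these calls rest on a covariate chosen after the data were seen, built from genes of the same tissue.

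Thyroid and beta-adrenergic genes were read beside Dio2 as a list, and a link between them and Dio2 was not tested. Of 13 tested, Dio2 included, 0 rose and 2 fell on drug against control, 1 rose and 3 fell off drug against control, and 2 rose and 3 fell off drug against on drug. The median log2 fold changes were -0.05, -0.08 and 0.01. Thra, the thyroid hormone receptor alpha, had 174, 146, 135 and 143 CPM in controls, 134, 143, 144 and 134 CPM on drug, and 114, 95.4, 108 and 106 CPM off drug. All off-drug libraries were below all others, and Thra fell by 0.5 ± 0.07 (log2) against control (adjusted p = 0.000209) and by 0.39 ± 0.07 against on drug (adjusted p = 0.00141). Thrb, the beta receptor, fell on drug by 0.25 ± 0.07 (adjusted p = 0.0474), a call lost in 12 of 24 other settings. Creb1, the factor that binds the cyclic AMP response element, fell on drug by 0.29 ± 0.07 (adjusted p = 0.0215, lost in 5 other settings).

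Adrb1, a beta-adrenergic receptor, had 1.03, 0.763, 0.489 and 1.12 CPM in controls, 0.9, 0.392, 0.865 and 0.831 CPM on drug, and 1.05, 1.45, 1.56 and 1.59 CPM off drug. It rose off drug against on drug by 0.91 ± 0.28 (adjusted p = 0.041), a call lost in 8 other settings. Adrb3, the beta-adrenergic receptor of adipocytes, had 3.54 ± 2.21 CPM in controls, 3.06 ± 0.685 on drug and 1.68 ± 1.44 off drug, with a log2 fold change of -1.05 ± 0.66 off drug against control (adjusted p = 0.365). Prkaca, a catalytic subunit of protein kinase A, rose off drug by 0.29 ± 0.07 against control (adjusted p = 0.00819) and 0.25 ± 0.07 against on drug (adjusted p = 0.0174). Pde3b, a phosphodiesterase that breaks down cyclic AMP, fell by 0.54 ± 0.13 (adjusted p = 0.015) and 0.49 ± 0.13 (adjusted p = 0.0238).

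Among 27 brown and beige genes tested, 5 of them from the 9 genes above, 1 rose and 1 fell on drug against control, 2 rose and 2 fell off drug against control, and 3 rose and 2 fell off drug against on drug, with median log2 fold changes of -0.28, -0.16 and 0.17. Dio2 is 1 of the 2 that fell in each off-drug comparison, and Gk is the other. Gk, glycerol kinase, had 60.3, 67.9, 68.2 and 78.9 CPM in controls, 66.2, 65.5, 63.2 and 56 CPM on drug, and 36.1, 34.3, 38.8 and 42.2 CPM off drug. All off-drug libraries were below all others, and Gk fell by 0.86 ± 0.08 against control (adjusted p = 2.23e-06) and 0.73 ± 0.08 against on drug (adjusted p = 1.1e-05). Ebf2, a transcription factor of brown preadipocytes, rose from 12 ± 1.18 CPM in controls to 17.5 ± 2.51 on drug (adjusted p = 0.00538) and 18.4 ± 2.09 off drug (adjusted p = 0.000928). Acot11, a thioesterase of brown fat, rose from 51.2 ± 9.24 to 74.4 ± 3.75 CPM off drug against control (adjusted p = 0.00153). Esrrg, an orphan nuclear receptor, fell on drug from 0.963 ± 0.246 to 0.326 ± 0.192 CPM (adjusted p = 0.0278) and was 0.916 ± 0.375 CPM off drug, a call at low level that 7 of 22 other settings lost. Fabp3, a fatty acid carrier of muscle and brown fat, rose off drug against on drug from 10.2 ± 1.42 to 15.5 ± 3.22 CPM (adjusted p = 0.00795).

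Of 22 general adipocyte genes, which include Adipoq, Plin1, Fabp4 and Lep, 0 passed in either comparison with control. Off drug against on drug 1 fell, the adiponectin receptor gene Adipor2 (97.5 ± 5.25 to 78.6 ± 11.9 CPM, adjusted p = 0.0355, lost in 7 of 24 other settings). It had 69.5 and 67.8 CPM in off-drug replicates 1 and 2, and 92.2 and 84.9 CPM in replicates 3 and 4. The median log2 fold changes of the 22 genes were 0.05, -0.34 and -0.28. Among 17 lipid droplet and lipolysis genes, 0 passed on drug, 3 rose off drug against control and 2 rose off drug against on drug. G0s2, which inhibits the first lipase of lipolysis, had 15.8, 18.6, 20.3 and 26.8 CPM in controls, 16.7, 15, 19.2 and 17.4 CPM on drug, and 32.7, 33.6, 37.7 and 39 CPM off drug. All off-drug libraries were above all others, and G0s2 rose by 0.81 ± 0.13 (log2) against control (adjusted p = 0.00107) and 1.07 ± 0.13 against on drug (adjusted p = 9.2e-05). Mgll, the lipase of the last step, and Abhd5, an activator of the first, rose off drug against control by 0.33 ± 0.08 (adjusted p = 0.00941) and 0.27 ± 0.06 (adjusted p = 0.0107).

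Of 20 lipogenesis genes, 2 rose off drug against control: the desaturase gene Fads2 from 11.7 ± 2.22 to 18.4 ± 1.49 CPM (adjusted p = 0.00134) and the regulator Srebf1 from 48.7 ± 6.72 to 67.5 ± 8.14 CPM (adjusted p = 0.00759). None passed in the other comparisons. Of 11 fatty acid uptake genes, 1 fell off drug against control, the lipoprotein lipase inhibitor Angptl4 (22.9 ± 3.04 to 11.1 ± 4.72 CPM, adjusted p = 0.0344, lost in 14 of 24 other settings), and 1 rose off drug against on drug, Fabp3. Of 17 genes of mitochondrial fatty acid oxidation, 1 passed, Cpt1a, which fell off drug against on drug by 0.38 ± 0.11 (adjusted p = 0.0444, lost in 15 other settings). Among 11 adipokine genes, Rbp4 rose on drug by 0.23 ± 0.06 (adjusted p = 0.021, lost in 6 other settings), and off drug against control Angptl4 fell.

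Of 20 adipocyte transcription factors, 2 rose and 2 fell on drug against control, 1 rose and 2 fell off drug against control, and 1 rose and 1 fell off drug against on drug. Nr1d1, the clock repressor Rev-erb alpha, had 52, 59, 56 and 69.1 CPM in controls, 67.6, 86.9, 82.8 and 82.1 CPM on drug, and 42.1, 34.7, 40.1 and 40.6 CPM off drug. Off drug all libraries were below all others, and on drug 1 library overlapped the controls. Nr1d1 rose on drug by 0.43 ± 0.09 (adjusted p = 0.00886) and fell off drug by 0.58 ± 0.09 against control (adjusted p = 0.00046) and 1.02 ± 0.09 against on drug (adjusted p = 1.56e-06). The hour of collection is not given in the sources used here. Cebpb, an early adipogenic factor, fell on drug by 0.42 ± 0.11 (adjusted p = 0.0299, lost in 7 other settings) and off drug by 0.66 ± 0.11 (adjusted p = 0.00104, lost in 1) against control.

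Of 11 adipocyte progenitor genes, 1 rose on drug against control, 1 rose and 3 fell off drug against control, and 5 fell off drug against on drug. Over all genes tested, 4.13% rose on drug against control, 6.27% rose and 5.77% fell off drug against control, and 6.92% fell between the drug groups. Ly6a, the stem cell antigen Sca-1, had 85.4, 78.9, 89 and 76.6 CPM in controls, 106, 93.7, 107 and 93.7 CPM on drug, and 64.4, 70.1, 65.1 and 53.8 CPM off drug. The 3 groups did not overlap. The gene that rose off drug was Pdgfrb, a receptor of mural cells and progenitors, from 177 ± 18.7 to 233 ± 8.27 CPM against control (adjusted p = 0.0226, lost in 7 other settings). Ly6a rose on drug by 0.28 ± 0.08 (adjusted p = 0.0358, lost in 8 other settings) and fell off drug by 0.38 ± 0.08 against control (adjusted p = 0.00341) and 0.66 ± 0.08 against on drug (adjusted p = 1.55e-05). Cd34, a surface protein of progenitor and endothelial cells, fell off drug from 309.6 ± 28.6 to 234 ± 10.1 CPM against control (adjusted p = 0.000643). Icam1 and Pi16 fell off drug against on drug by 0.41 ± 0.09 (adjusted p = 0.00381) and 0.31 ± 0.07 (adjusted p = 0.00733). Fibroblast, endothelial and macrophage genes fell in the same comparison, by the counts and sums given above for Dio2 (Pi16 is in the fibroblast list too), and their part here was not tested.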

How the data were processed

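The 12 libraries of total RNA from aorta were grouped by their labels. The authors deposited whole-number counts per gene and library, made with featureCounts 1.4.6-p3 on GENCODE M13 exons after alignment to a STAR 2.5.3a index, per the file headers. GRCm38 and DESeq2 are named in the submitters' processing notes. Counting assigned multi-mapping and multi-gene reads to each gene, ignored duplicates and set no strand. The deposited series tables hold log2 values of counts divided by size factors plus 1 (recomputed within 5e-09), and gave the gene symbols and positions. A smaller deposited table has 19980 genes, without Lep and Elovl3.

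From the counts, edgeR 4.0.16 in R 4.3.3 computed TMM factors, filtered genes with filterByExpr (minimum count 10, minimum total 15) and fitted 1 robust quasi-likelihood model to all 12 libraries. The 3 contrasts were tested two-sided with Benjamini-Hochberg adjustment over 24660 genes, called at an adjusted p below 0.05. SEs came from the F statistic, and SDs are over 4 libraries. Log2 CPM for spread and r used a prior count of 2. The fit was tested on simulated counts. With totals of 41524501 to 109423243 counts, counting error was small except for Lep, Elovl3 and Ppargc1a.

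The 9 genes, the lists and the tests were chosen with earlier results of these data known. Named were the 9 genes, up to 4 called genes per list and comparison by smallest adjusted p, and the 5 genes most like Ucp1 and Adipoq (mean log2 CPM 1 or more). Adrb3, Pparg, Cidec, Cox8b, Prdm16, Lhx8, Zic1 and the muscle genes are outside this rule and were named after their values were seen. Settings tried were DESeq2 size factors, no composition factors, all genes unfiltered, genes at CPM 1 or more in 4 libraries or above, the smaller table, DESeq2 1.42.0, limma-voom (limma 3.58.1) with quality weights, the 2 groups alone, the replicate block, a skeletal muscle covariate and each library left out. An adipocyte covariate and leaving out off-drug replicates 1 and 2 together were added after the data were seen.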

Additional observations from a re-analysis of the deposited data

Results flagged for a closer look

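In 2 of the 27 sets of 4 libraries (9 genes in 3 groups), 1 library lay far from the other 3 of its group by Dixon's 95% criterion on the gap over the range. Chance gives about 1 in 20. Fabp4 in on-drug replicate 2 was 89.3 CPM with the next at 130 CPM, a gap of 0.84 of the range. Dio2 in control replicate 4 was 120.1 CPM with the next at 86.6 CPM, a gap of 0.952 of the range. That library was also the highest control for Ucp1, Cidea, Adipoq, Plin1, Lep, Fabp4 and Ppargc1a.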

How the results depend on the processing

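There were 24 other settings, 12 of which left out 1 library. Lep and Elovl3 had no value in the smaller table, and Lep had none under the stricter filter. The fall of Dio2 off drug held its direction and its call in all 24, from -1.48 to -1.15 (log2) against control and from -1.65 to -1.51 against on drug. Of 639 log2 fold changes of the 9 genes, 43 changed sign, none of them a called value, and the cause was not tested. Among the 9 genes, 1 passed on drug against control with library sizes alone and 0 to 1 with 1 library left out (Dio2 in both cases, the latter without control replicate 4). With the adipocyte covariate 2 passed in each comparison with control and 4 between the drug groups. Of the 24660 genes tested, 1762 passed in that fit on drug and 2851 off drug against control, and 2662 between the drug groups.

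Over all genes, calls on drug against control numbered 2845 with DESeq2, 1147 with the 2 groups alone, 722 with the muscle covariate and 803 to 2290 with 1 library left out (906 without control replicate 3, and 803 and 918 when on-drug replicates 3 and 4 were dropped in turn), against 1743. Off drug against control they numbered 871 with the muscle covariate and 1252 without off-drug replicates 1 and 2 together, against 2967, and 1602 without those libraries off drug against on drug, against 3047.

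On drug against control, limma-voom gave 0.27 for Ucp1 and 0.16 for Elovl3, the muscle covariate gave 0.11 for Ucp1, 0.33 for Lep, 0.27 for Fabp4 and 0.76 for Elovl3, and the adipocyte covariate -0.016 for Adipoq. With 1 library left out, Adipoq ran from -0.13 to 0.54, Plin1 from -0.13 to 0.45, Lep from -0.68 to 0.47, Fabp4 from -0.37 to 0.12 and Elovl3 from -0.82 to 0.52. Off drug against control, the muscle covariate gave 0.48 for Ucp1, 0.46 for Cidea, 0.084 for Adipoq, 0.47 for Plin1 and 0.26 for Fabp4. The adipocyte covariate gave 0.37 for Ucp1 and 0.27 for Cidea. Without off-drug replicates 1 and 2, Ucp1 was 0.49, Cidea 0.48, Adipoq 0.047, Plin1 0.33 and Fabp4 0.22. With 1 library left out, Ucp1 ran from -0.94 to 0.15, Cidea from -0.59 to 0.15 and Elovl3 from -0.58 to 0.99. In the comparison of off drug with on drug, limma-voom gave -0.696 for Ucp1, the adipocyte covariate 0.11 for Fabp4, and leaving out off-drug replicates 1 and 2 gave 0.198 for Plin1 and 0.39 for Fabp4. With 1 library left out, Ucp1 ran from -0.35 to 0.55 and Elovl3 from -0.29 to 1.01.

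Libraries of the same replicate number had little in common: in 12 such pairs r was -0.08 to 0.067. In 3 of them the best match was the library of the same number. All 3 joined an on-drug with an off-drug library (replicates 2, 3 and 4, r = 0.055, 0.067 and 0.047). With a replicate block 0, 1 and 1 of the 9 genes passed, as without it, and 1558, 2791 and 3047 of all genes. In that fit Elovl3 was -0.34 off drug against control and Ucp1 -0.34 off drug against on drug. Depth limited Lep and Elovl3, whose lowest libraries held 8 and 2 counts, and Ppargc1a, with 66 in its lowest.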
